A study of Saccharomyces cerevisiae with 4 samples.

Results

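Aminoacyl-tRNA synthetases are the enzymes that attach each amino acid to its tRNA. The 34 genes described here encode the synthetases of the budding yeast Saccharomyces cerevisiae, 21 for the cytosol or for both compartments and 13 for mitochondria alone. They were listed by open reading frame (ORF) name from their known function. All 34 were found among the 5441 ORFs of the deposited tables, and all 34 passed the filter on low values (200 or more counts over the libraries together), as did 4997 ORFs in all. The comparison of interest was between the cytosolic and the mitochondrial enzymes, across the strains and plasmids of the study.

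Ribosome footprints, the mRNA fragments of about 30 bases that ribosomes shield from RNase I, were sequenced from strain Y7092, a haploid laboratory strain used for systematic genetic crosses. VPS35, a retromer gene needed to recycle membrane proteins out of endosomes, was intact or replaced by the natMX cassette (vps35::natMX), and cells carried pAG416GAL-ccdB as the control plasmid or pAG416GAL-TIF4631. TIF4631 encodes the translation initiation factor eIF4G1, here placed behind a galactose-inducible promoter. All cells were grown in synthetic defined medium to early log phase and induced for 2 h. Each of the 4 combinations was measured in 1 library, so there was no spread between replicates, and the differences below are between libraries. Footprint counts join mRNA level and translation, no matched mRNA sequencing was analysed here, and a change in the share of cells in some state cannot be told apart from a change in footprints per cell.

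Summed counts per library lay between 11240681 and 18067205. VPS35 held 2187 and 1974 counts in the wild-type libraries and 9 and 10 in the deletion libraries. TIF4631 stood at 455 and 435 in counts scaled to a common depth (CPM) in the wild-type and deletion control libraries, and at 6217 CPM in the deletion library with TIF4631. The library labelled wild-type TIF4631 held 403 CPM, so the targeted gene went against its label. It is called by that label throughout, and its values do not describe cells with raised TIF4631 footprints.

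Each synthetase recognises its own amino acid and a matching set of tRNAs, and the charged tRNAs are then carried to the ribosome by an elongation factor. Yeast keeps separate nuclear genes for many mitochondrial synthetases, which charge the tRNAs used to make the few proteins encoded by mitochondrial DNA. For some amino acids a gene makes both forms. HTS1, for histidine, and VAS1, for valine, do so from a pair of in-frame start codons, the upstream one giving a protein with a mitochondrial targeting signal, while ALA1, for alanine, and GRS1, for glycine, add the signal by starting at a non-AUG codon upstream. Uncharged tRNA activates the kinase Gcn2, which raises translation of the transcription factor Gcn4 and through it the genes of amino acid synthesis.

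The start regions of HTS1 and VAS1 show why a count per ORF cannot separate the forms. Each runs from the annotated start codon to the next in-frame ATG, which is codon 21 of HTS1 and codon 47 of VAS1. The sequences are from the R64 assembly of RefSeq, the same as sacCer3, 5′ to 3′ on the coding strand, with both ATG codons in capitals. HTS1 is on the minus strand, chrXVI:638957-639019, and VAS1 on the plus strand, chrVII:672186-672326.
HTS1: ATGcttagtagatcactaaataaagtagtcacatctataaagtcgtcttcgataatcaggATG
VAS1: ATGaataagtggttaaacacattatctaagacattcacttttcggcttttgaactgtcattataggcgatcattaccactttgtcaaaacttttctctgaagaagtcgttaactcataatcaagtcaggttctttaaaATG

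The classes also differed in the letters that follow the stop codon. Puf3 is an RNA-binding protein known in this yeast for binding mRNAs of mitochondrial proteins, through the letters TGTANATA in DNA form. These letters were searched on the coding strand in the 200 bases after each stop codon, a fixed window that was not fitted to transcript ends. They occurred for 13 of 13 mitochondrial synthetases and for 4 of 21 cytosolic ones (ALA1, GLN4, GUS1 and CRS1), against 818 of 5421 nuclear ORFs of the tables with a coding sequence in the reference, 15.1%. The mitochondrial ribosomal proteins held them in 64 of 65 genes. The form TGTAAATA occurred for 12 of the 13, ISM1 being the exception, for 0 of the 21 and for 4.63% of all ORFs. The 4 cytosolic matches were all TGTATATA, a form found for 7.69% of all ORFs. Windows of 30 bases are shown for the mitochondrial members whose values lead the results (MSK1 and NAM2, lowest with TIF4631, and SLM5, which did not differ) and for a cytosolic match, GUS1, with the searched letters in capitals.
MSK1, chrXIV:490131-490160, plus strand: gccaatgctttTGTAAATAaatcagacata
NAM2, chrXII:882016-882045, minus strand: ccactagtgctTGTAAATAgttaaatatta
SLM5, chrIII:160634-160663, minus strand: aagaccatcctTGTAAATAtaataatgtag
GUS1, chrVII:41154-41183, plus strand: cacataagtaaTGTATATAcatatttatgt
MSK1 held a second copy 48 bases after its stop codon, beside the copy shown at 26 bases, NAM2 a second at 119 bases, and MSF1, for phenylalanine, copies at 41 and 52 bases. The other 10 mitochondrial genes held 1 copy each. Matches are descriptions of the letters and not measured binding.

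The Gcn4 letters TGACTCA were searched on both strands of the 300 bases before each start codon. They occurred for 3 of 21 cytosolic synthetases and 0 of 13 mitochondrial ones, against 2.8% of all ORFs and 18 of 39 genes of amino acid synthesis. DED81, for asparagine, and YHR020W, for proline, lie head to head on chromosome VIII with 437 bases between their start codons, and the same site served for both. The other site belonged to YDR341C, for arginine. They are shown because these are the only Gcn4 matches among the members, read on the coding strand of the gene named.
YHR020W, chrVIII:143802-143830, plus strand: taagcgatgctTGAGTCActgaatgtctt
YDR341C, chrIV:1153810-1153838, minus strand: aaagtgtctaaTGAGTCAgttatttcttt

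The 2 classes did not overlap in footprint level. Levels between genes are given as the authors' RPKM, read density corrected for ORF length and library reads. In the wild-type control library the cytosolic enzymes lay between 184 and 763 RPKM with a median of 381, the mitochondrial ones between 10.98 and 36.1 with a median of 21.4, and all 4997 tested ORFs had a median of 41.9. As the mean of the 4 libraries, the cytosolic median was 18.7-fold above the mitochondrial one, and 21 of 21 cytosolic genes stood above the highest mitochondrial gene in every library. That gene, MSW1, ranked 2890 among the 5441 ORFs by mean RPKM, so most ORFs also stood above every mitochondrial synthetase. The lowest cytosolic gene, CRS1, ranked 866. The cytosolic class took 1.61% to 1.76% of all counts in each library. The mitochondrial class took 0.0498%, 0.0469% and 0.0484% in the wild-type control, labelled wild-type TIF4631 and deletion control libraries, and 0.0372% in the deletion library with TIF4631.

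**Figure D1:**
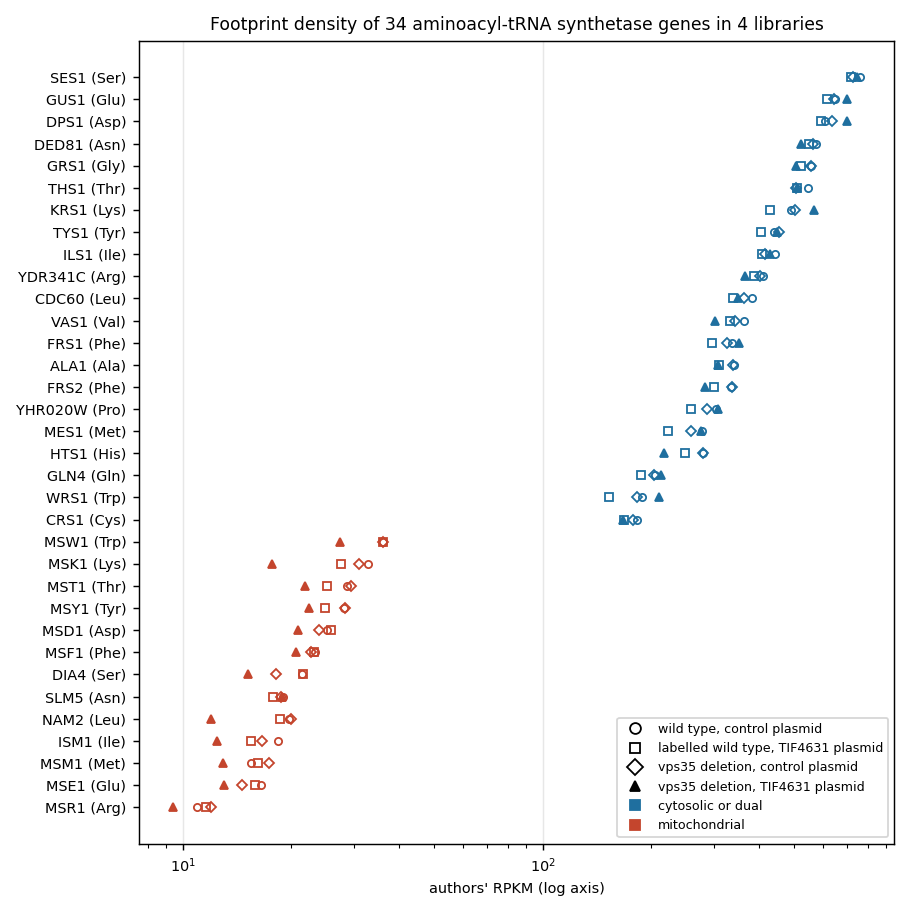
Footprint density (authors' RPKM, log axis) of the 34 synthetase genes, ordered by their mean, with 1 symbol per library, blue for cytosolic or dual and red for mitochondrial. The classes are separated by a gap between CRS1 and MSW1, and the filled triangles of the vps35 deletion library with TIF4631 lie to the left of the other symbols for 12 of 13 mitochondrial genes.

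Within the cytosolic class the serine enzyme SES1 (YDR023W) stood first, at 763, 722, 728 and 749 RPKM in the wild-type control, labelled wild-type TIF4631, deletion control and deletion with TIF4631 libraries. The glutamate enzyme GUS1 followed with a mean of 654 and the aspartate enzyme DPS1 with 635. These 3 held the first ranks in each library, though the ranges of GUS1 and DPS1 over the libraries overlapped. At the other end were the cysteine enzyme CRS1, at 184, 168, 179 and 168 RPKM, and the tryptophan enzyme WRS1, at 189, 153, 183 and 211. CRS1 and WRS1 change places between libraries. Among mitochondrial genes the tryptophan enzyme MSW1 was highest, at 36.1, 36.0, 36.1 and 27.3 RPKM, and the arginine enzyme MSR1 lowest, at 10.98, 11.6, 12.0 and 9.42. The other members filled the range between with neighbours that their spread over libraries did not separate.

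Codon use, which the choice of members did not draw on, followed the same division. A codon adaptation index was computed from R64 coding sequences against 61 cytosolic ribosomal protein genes, so that 1 means the codons those genes prefer. It lay between 0.343 and 0.541 for the cytosolic synthetases and between 0.153 and 0.233 for the mitochondrial ones, with medians of 0.412 and 0.19, against 0.202 over 4929 tested ORFs outside the ribosomal proteins. Across genes, the index and the log2 of the mean RPKM had a Pearson r of 0.751 over the 21 cytosolic genes and 0.151 over the 13 mitochondrial ones, where the points share libraries and are not independent replicates, and 0.672 over the 4929 ORFs.

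**Figure D2:**
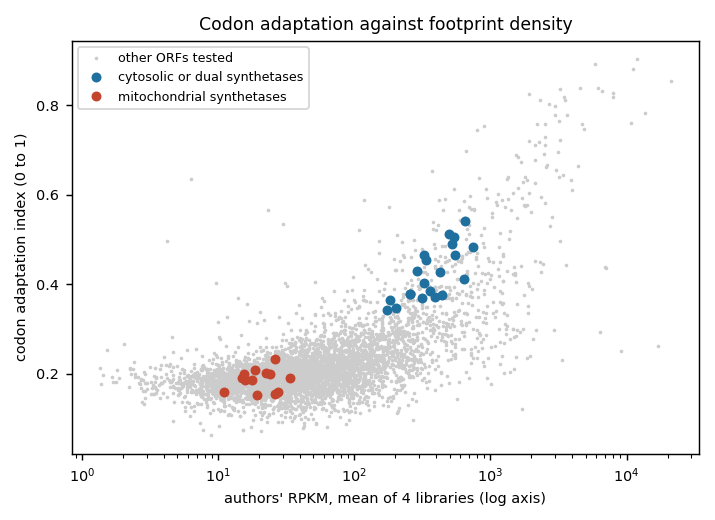
Codon adaptation index (0 to 1) against the authors' RPKM as the mean of 4 libraries (log axis), with 1 point per ORF. Cytosolic synthetases (blue) lie at 0.343 and above and mitochondrial ones (red) at 0.233 and below, inside the cloud of other tested ORFs (grey).

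Setting the enzymes for each amino acid side by side, the RPKM ratio of cytosolic to mitochondrial gene in the wild-type control library ran from 39.3 for glutamate (GUS1 over MSE1) and 37.3 for arginine (YDR341C over MSR1) down to 5.23 for tryptophan (WRS1 over MSW1). Leucine (CDC60 over NAM2) stood at 19.3, lysine (KRS1 over MSK1) at 15.0 and methionine (MES1 over MSM1) at 17.9. In 12 of 14 such gene pairs the ratio was highest in the deletion library with TIF4631. The lysine pair had ratios of 15.0, 15.5 and 16.3 in the other libraries and 32.1 there, and the leucine pair 19.3, 18.1 and 18.2 against 29.1. The exceptions were asparagine (DED81 over SLM5), lowest there at 27.6, and FRS2 over MSF1, at 13.8.

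**Figure D3:**
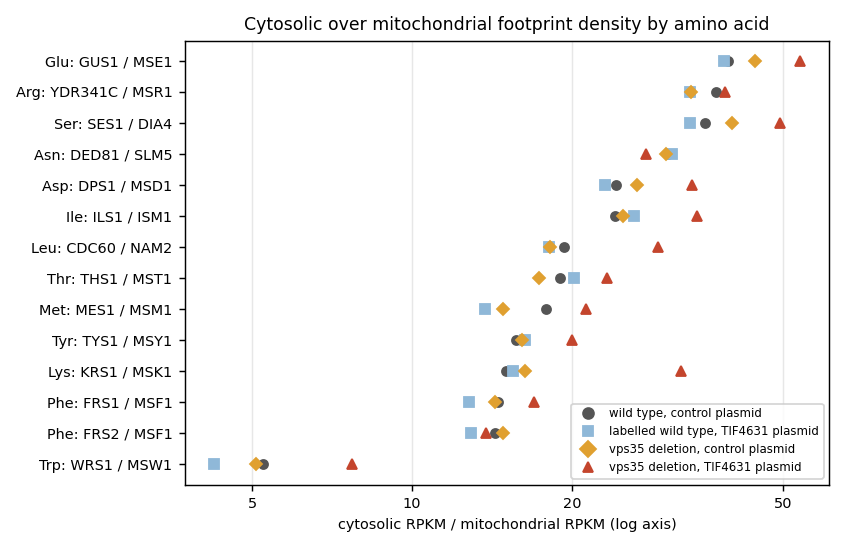
Ratio of cytosolic to mitochondrial RPKM (log axis) for each amino acid with a gene of each class, with 1 symbol per library and phenylalanine shown for both cytosolic subunits. The red triangles of the vps35 deletion library with TIF4631 are the highest symbol in 12 of 14 rows, farthest to the right of the others for lysine.

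Phenylalanyl-tRNA synthetase of the cytosol is built from equal numbers of FRS1 and FRS2 subunits. Their RPKM ratio was 1.01 (95% counting interval 0.98 to 1.04) in the wild-type control library, 0.99 (0.961 to 1.02) in the library labelled wild-type TIF4631 and 0.971 (0.937 to 1.01) in the deletion control library. In the deletion library with TIF4631 it was 1.24 (1.2 to 1.28), from 351 RPKM for FRS1 (YLR060W) and 284 for FRS2 (YFL022C). By counting error alone, equal footprint density of the subunits was thus measured in 3 libraries and not in that one. How far unrelated genes shift against each other in that library was not examined. ARC1, the tRNA-binding cofactor that forms a complex with the glutamate and methionine enzymes, matched GUS1 at RPKM ratios between 0.98 and 1.01 in the 4 libraries. MES1, for methionine, stood at 0.417, 0.361, 0.398 and 0.396 of ARC1, lowest in the library labelled wild-type TIF4631.

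Loss of VPS35 alone, in cells with the control plasmid, went with small differences in both classes. Log2 ratios were computed from counts scaled by TMM, a method that evens out library composition, with 95% counting intervals in parentheses. The median was -0.05 for the cytosolic class, with a range of -0.12 to 0.04, and -0.04 for the mitochondrial class, with a range of -0.26 to 0.15, against 0.00 over all ORFs. Beyond counting error, 11 cytosolic genes were lower and 1 was higher, and 2 mitochondrial genes were lower and 0 higher, where 17.3% of all ORFs were lower and 17.2% higher. No member reached 0.5 in either direction, which 1.86% of ORFs did downward and 1.44% upward, or 1, which 0.54% did downward and 0.26% upward. Cytosolic members held 2647 to 25105 counts per library in the libraries compared and mitochondrial ones 259 to 994, so smaller differences pass counting error in the cytosolic class.

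The lowest members in that contrast were the mitochondrial serine enzyme DIA4 (YHR011W) at -0.26 (-0.48 to -0.04), the glutamate enzyme MSE1 at -0.20 (-0.43 to 0.02) and the isoleucine enzyme ISM1 at -0.17 (-0.33 to -0.02), followed by MES1, THS1 and ILS1, for methionine, threonine and isoleucine in the cytosol, each at -0.12. The highest were the mitochondrial methionine enzyme MSM1 at 0.15 and MSR1 at 0.11, both with intervals that held 0, then DPS1 at 0.04 and KRS1 and TYS1, for lysine and tyrosine, at 0.02.

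In the library labelled wild-type TIF4631, compared with the wild-type control that the previous contrast also uses, the cytosolic class stood slightly lower. Its median was -0.09, with 19 of 21 genes lower beyond counting error and 0 higher, against 23.6% lower and 24.0% higher of all ORFs. MES1 was lowest, with 277 RPKM in the control and 223 here, a log2 ratio of -0.28 (-0.32 to -0.24). WRS1 stood at -0.27 (-0.33 to -0.20) and YHR020W at -0.19 (-0.23 to -0.15). The mitochondrial median was -0.02, with 2 of 13 lower beyond counting error, the lysine enzyme MSK1 at -0.21 (-0.34 to -0.08) and ISM1 at -0.21 (-0.34 to -0.07). The highest members were mitochondrial, from MSR1 at 0.11 and MSM1 at 0.10 through MSD1, for aspartate, at 0.07 and DIA4 at 0.05 to MSW1 at 0.04, all with intervals that held 0. No member reached 0.5, as did 1.26% of ORFs downward and 2.82% upward, or 1, as did 0.1% downward and 0.46% upward.

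The deletion library with TIF4631 differed from its deletion control mainly in the mitochondrial class. MSK1 (YNL073W, chromosome XIV, 488386 to 490116) held 32.8, 27.6 and 30.9 RPKM in the wild-type control, labelled wild-type TIF4631 and deletion control libraries, and 17.8 in the deletion library with TIF4631, from 994, 855, 595 and 498 counts. NAM2 (YLR382C, chromosome XII, 882067 to 884751), the leucine enzyme that also aids splicing of mitochondrial introns, held 19.8, 18.7, 19.96 and 12.0 RPKM in the same order. Both were lowest in the deletion library with TIF4631. Their log2 ratios to the deletion control were -0.81 (-0.98 to -0.64) and -0.75 (-0.92 to -0.58), at percentiles 1.44 and 1.98 of all ORFs.

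The mitochondrial median in this contrast was -0.36 and the cytosolic median -0.01, against 0.01 over all ORFs. Of the 13 mitochondrial genes 10 were lower beyond counting error and 0 higher, where 31.3% of all ORFs were lower and 30.1% higher. Only MSK1 and NAM2 were lower by 0.5 or more, 2 of 13, as were 7.7% of all ORFs. No member was higher by 0.5, as were 5.4% of ORFs, and none reached 1, as did 0.56% downward and 1.06% upward. Next came MSM1 at -0.44 (-0.66 to -0.22), the threonine enzyme MST1 at -0.44 (-0.63 to -0.25), ISM1 at -0.42 (-0.59 to -0.26) and MSW1 at -0.41 (-0.60 to -0.23). MSR1 stood at -0.36, the tyrosine enzyme MSY1 at -0.35, DIA4 at -0.27 and MSD1 at -0.21, all beyond counting error. MSE1 at -0.17 and the phenylalanine enzyme MSF1 at -0.15 had intervals that held 0. The asparagine enzyme SLM5 (YCR024C) held 19.0, 17.9, 18.7 and 18.9 RPKM in the 4 libraries, a log2 ratio of 0.00 (-0.21 to 0.21). SLM5 alone of the 13 was not lowest in the deletion library with TIF4631, where 36.9% of all ORFs had their lowest scaled count.

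**Figure D4:**
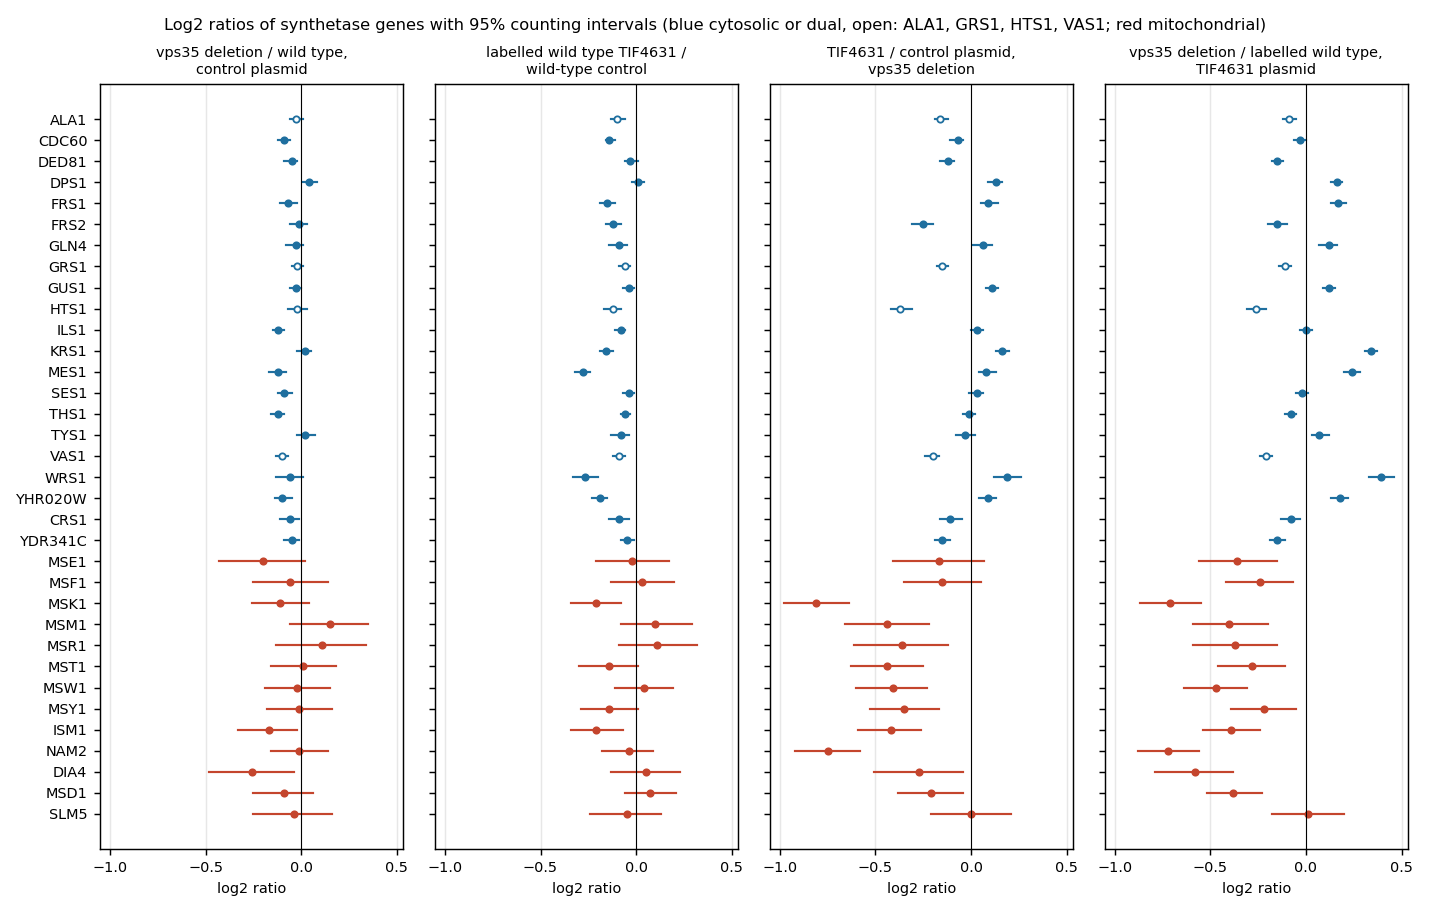
Log2 ratios of the 34 synthetase genes in 4 contrasts with 95% counting intervals as bars, blue for cytosolic or dual (open circles for ALA1, GRS1, HTS1 and VAS1) and red for mitochondrial. In the right-hand panels of the TIF4631 contrast in deletion cells and of deletion against the library labelled wild-type TIF4631, which share the vps35 deletion library with TIF4631, 12 of 13 mitochondrial genes lie at -0.15 or lower while cytosolic genes scatter on both sides of 0.

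Summed over each class, the ratio of cytosolic to mitochondrial counts was 35.3 (34.6 to 36.1) in the wild-type control library, 34.3 (33.6 to 35.1) in the library labelled wild-type TIF4631 and 35.4 (34.5 to 36.4) in the deletion control library. It was 45.8 (44.7 to 47.0) in the deletion library with TIF4631. These intervals cover counting error only and hold no spread between libraries or between genes. By counting error alone, the intervals of the first 3 ratios overlapped, and that of the deletion library with TIF4631 lay above them all. Without replicate libraries, a difference beyond the spread between libraries was not tested.

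Cytosolic genes were split in that contrast, 9 of 21 lower and 9 higher beyond counting error, against 31.3% and 30.1% of all ORFs. Their high counts let smaller differences pass counting error. ALA1, GRS1, HTS1 and VAS1, the genes described above as making both enzymes, were all on the lower side. HTS1 (YPR033C) was lowest of the class, with 278, 249, 279 and 218 RPKM in the 4 libraries and a log2 ratio of -0.37 (-0.42 to -0.31). VAS1 stood at -0.20 (-0.24 to -0.17), ALA1 at -0.16 (-0.19 to -0.12) and GRS1 at -0.15 (-0.18 to -0.12). Whether the mitochondrial or the cytosolic form of these enzymes differed cannot be read from counts per ORF. Among the other 17 cytosolic genes 5 were lower, near the 31.3% of all ORFs, and 9 higher, against 30.1%, with a median of 0.03. The 5 were FRS2 at -0.25 (-0.31 to -0.20), YDR341C at -0.15, DED81 at -0.12, CRS1, which is also known to serve both compartments, at -0.11 and the leucine enzyme CDC60 at -0.07. The highest members were WRS1 (YOL097C), with 183 RPKM in the deletion control library and 211 with TIF4631, a log2 ratio of 0.19 (0.12 to 0.26), then KRS1 at 0.16, DPS1 at 0.13, GUS1 at 0.11 and, at 0.09, FRS1 and YHR020W. MES1 at 0.08, the glutamine enzyme GLN4 at 0.06 and ILS1 at 0.03 completed the 9. SES1 at 0.03, THS1 at -0.01 and TYS1 at -0.03 had intervals that held 0.

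**Figure D5:**
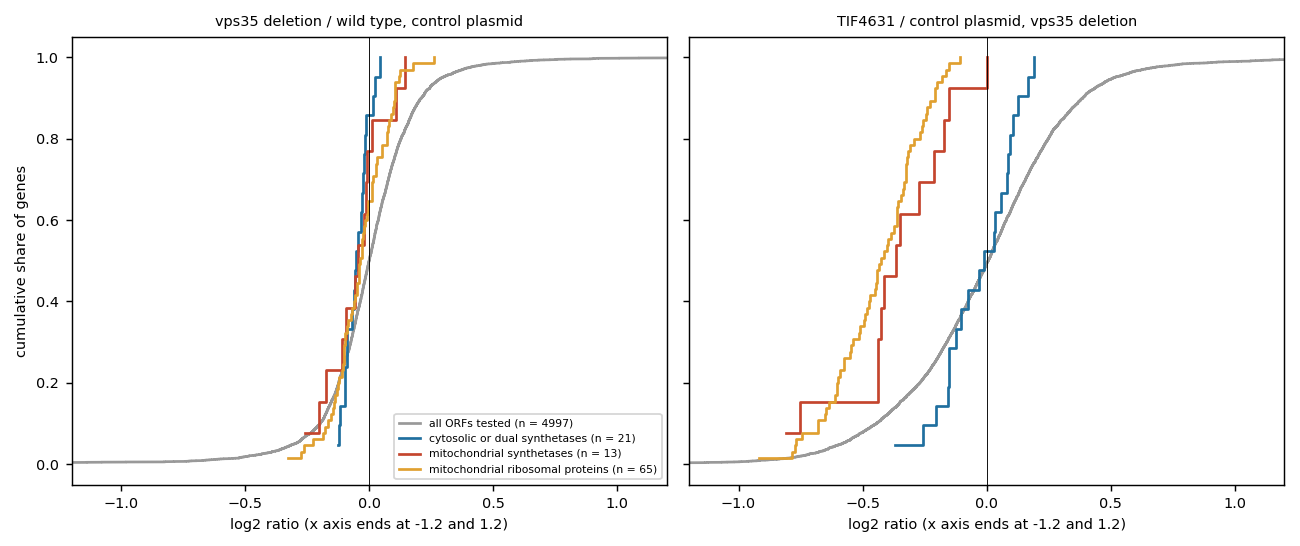
Cumulative share of genes by log2 ratio for all 4997 tested ORFs, the 21 cytosolic and 13 mitochondrial synthetases and 65 mitochondrial ribosomal proteins. The 4 curves run close together for vps35 deletion under the control plasmid (left), and in the TIF4631 contrast of deletion cells (right) both mitochondrial curves are shifted left, with medians of -0.36 for the synthetases and -0.42 for the ribosomal proteins.

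Set against the library labelled wild-type TIF4631, the deletion library with TIF4631 had a mitochondrial median of -0.38 and a cytosolic median of -0.02, or 0.05 with total count scaling. This contrast shares the deletion library with TIF4631 with the previous one and does not repeat it independently. Beyond counting error 12 of 13 mitochondrial genes were lower, against 35.3% of all ORFs, and 3 of 13 were lower by 0.5 or more, against 10.7%: NAM2 at -0.72 (-0.88 to -0.56), MSK1 at -0.71 (-0.87 to -0.55) and DIA4 at -0.58 (-0.79 to -0.38). MSW1 at -0.47 and MSM1 at -0.40 followed. No member was higher by 0.5, as were 8.59% of ORFs, and none reached 1, as did 2.4% downward and 1.58% upward. In the cytosolic class 9 were lower and 9 higher, against 33.8% of all ORFs higher, led by WRS1 at 0.39 (0.33 to 0.46), KRS1 at 0.34, MES1 at 0.24, YHR020W at 0.18 and FRS1 at 0.17. ALA1, GRS1, HTS1 and VAS1 lay between -0.26 and -0.09. With the control plasmid, a contrast that shares no library with this one, 9 of the 13 mitochondrial genes were below 0 in both, as were 1322 of all 4997 ORFs. Another 3 were above 0 and then below, as were 1187 of all ORFs, and SLM5 was below and then above.

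The difference between the TIF4631 ratios of the strains, deletion minus wild type, had a median of -0.29 for the mitochondrial class and 0.06 for the cytosolic class, against -0.02 over all ORFs. Since TIF4631 was raised in the deletion strain alone, this is a difference among 4 libraries and not between effects of raised TIF4631. Beyond counting error 9 of 13 mitochondrial genes were lower, against 31.5% of all ORFs, and 12 of 21 cytosolic genes were higher and 7 lower, against 27.6% higher. With total count scaling the cytosolic median was 0.11 and 3 genes were lower. By 0.5 or more 3 of 13 were lower, against 10.6% of all ORFs: NAM2 at -0.71, MSK1 at -0.60 and MSM1 at -0.54, ahead of MSR1 at -0.48 and MSW1 at -0.45. No member was higher by 0.5, as were 9.11% of ORFs, and none reached 1, as did 1.78% downward and 1.58% upward. The highest were WRS1 at 0.46, MES1 at 0.36, KRS1 at 0.32, YHR020W at 0.27 and FRS1 at 0.24.

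An additive model of strain and plasmid label was fitted over the 4 libraries. Its spread comes from the difference between the TIF4631 ratios of the strains and not from replicates. In that model edgeR's quasi-likelihood test called 0 of 34 members for the deletion of VPS35 at an adjusted p of 0.05. Of all ORFs 0.2% rose and 0.42% fell. These are 10 and 21 ORFs, or 42 and 41 with total count scaling. As fitted, 0 members had an unadjusted p under 0.05 by edgeR, where 348 of 4997 ORFs did, 0 by DESeq2 and 1 by limma. With DESeq2 size factors, no filter or a filter of 1000 counts edgeR gave 2 such members. DESeq2 and limma called 0 members. The largest estimates were mitochondrial, DIA4 at -0.42 (SE 0.187), MSK1 at -0.41 (SE 0.181) and NAM2 at -0.36 (SE 0.192), and the lowest adjusted p of a member was 0.722 by edgeR. All 13 mitochondrial estimates were below 0, from -0.42 to -0.02, and those of cytosolic genes lay between -0.16 and 0.18. No share of all ORFs below 0 was computed for these estimates. The strain term joins both strain contrasts, so it does not describe the deletion under the control plasmid alone. Under the control plasmid 10 of the 13 mitochondrial ratios were below 0 and 3 above, where 2507 of 4997 ORFs were below 0. With the deletion library with TIF4631, against the library labelled wild-type TIF4631, 12 were below 0 and 1 above, where 2509 ORFs were below 0. For the TIF4631 label 0 members and 0.0% of ORFs passed in either direction by edgeR, and 0 members by DESeq2 and limma. MSK1, at -0.50 (SE 0.181, edgeR unadjusted p = 0.0214, adjusted p = 0.999), was the only member with an unadjusted p under 0.05 by edgeR, where 168 of 4997 ORFs had one. Total counts or no filter gave 2 such members, limma 1 and DESeq2 0. The model has 1 residual degree of freedom, and the difference between the TIF4631 ratios of the strains counts as its residual spread. For the mitochondrial class that difference had a median of -0.29. A call of 0 members therefore does not show that the members did not differ. The plasmid term joins a library with raised TIF4631 to a library without it.

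Other genes of tRNA charging and delivery are given for the deletion library with TIF4631 against its control. The shares of all ORFs to set beside these counts are 30.1% higher and 31.3% lower. Of the accessory factors, 1 of 7 was higher beyond counting error and 1 lower. ARC1 stood at 0.09 (0.05 to 0.13), and AIM10, the counterpart of prolyl-tRNA synthetase in mitochondria, at -0.27 (-0.43 to -0.10). PET112, HER2 and GTF1, the subunits that turn glutamate into glutamine on mitochondrial tRNA, stood at -0.20, 0.08 and -0.13, FMT1, which formylates mitochondrial initiator tRNA, at -0.15, and GRS2, a second glycine enzyme gene, at -0.14, all with intervals that held 0. Among delivery and elongation factors, 4 of 7 measured genes were lower and 2 higher. The mitochondrial factors MEF1, at -0.62 (-0.70 to -0.53), and TUF1, which carries charged tRNA to mitochondrial ribosomes, at -0.50 (-0.54 to -0.45), were lowest. The cytosolic YEF3 stood at -0.36, EFB1 at -0.10, TEF4 at 0.01, CAM1 at 0.06 and HYP2, the factor eIF5A, at 0.21. TEF1, TEF2, EFT1 and EFT2 were not analysed here.

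The mitochondrial ribosomal proteins, which use the charged tRNAs, had a median of -0.42 in that contrast. Of 65 genes 64 were lower beyond counting error and 22 lower by 0.5 or more, where 31.3% and 7.7% of all ORFs were. Their medians were -0.04 for vps35 deletion under the control plasmid and -0.05 in the library labelled wild-type TIF4631. MRP7, at -0.92, was lowest and MRP10, at -0.11, highest. Of 19 tRNA modification genes 8 were higher and 4 lower, where 30.1% and 31.3% of all ORFs were. The lower ones included SLM3 at -0.90 (-1.28 to -0.52) and MTO1 at -0.67 (-0.88 to -0.46), which modify mitochondrial tRNAs. MSS1, the partner of MTO1, stood at 0.09 (-0.29 to 0.48), and PUS1 at 0.53 and TRM82 at 0.52 were highest. Of 13 genes of tRNA processing and export 5 were higher and 3 lower, from the splicing endonuclease subunit SEN2 at -0.58 and the tRNA ligase TRL1 at -0.36 to SEN15 and UTP8, each at 0.37.

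ORFs with TGTANATA after the stop codon were lower in the same contrast, with a median of -0.16 over 788 tested ORFs and 51.4% lower beyond counting error, against 0.03 and 27.6% over 4202 ORFs without these letters. Leaving out the synthetases and mitochondrial ribosomal proteins, 707 ORFs had a median of -0.13 with 46.7% lower. These 707 still held other mitochondrial genes, among them TUF1, MEF1, PET112, HER2 and AIM10. Under the control plasmid the medians with and without the letters were -0.01 and 0.00. Of the 13 mitochondrial synthetases, which all carry the letters, 12 were below 0 and SLM5 did not differ. Of the 4 cytosolic carriers, ALA1 at -0.16 and CRS1 at -0.11 were lower, and GUS1 at 0.11 and GLN4 at 0.06 higher. HTS1, VAS1 and GRS1, which were lower, do not carry the letters. Whether Puf3 plays a part was not tested.

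The genes that sense uncharged tRNA were set beside the synthetases. GCN4 held 123, 172, 90.9 and 107 RPKM in the wild-type control, labelled wild-type TIF4631, deletion control and deletion with TIF4631 libraries. Its level was highest in the library labelled wild-type TIF4631 and lowest in the deletion control, with log2 ratios to the wild-type control of 0.53 (0.44 to 0.61) and -0.46 (-0.58 to -0.34). In deletion cells its ratio with TIF4631 was 0.22 (0.10 to 0.35). GCN2, GCN1 and GCN20, the kinase and its activators, stood at 0.17, 0.19 and 0.19 there, and YIH1, which restrains Gcn2, at -0.39. The amino acid synthesis list had medians of -0.10, 0.08 and 0.21 in the vps35, labelled wild-type TIF4631 and deletion with TIF4631 contrasts. Of its 39 genes 23 were lower and 6 higher beyond counting error in the first, where 17.3% and 17.2% of all ORFs were. In the second 7 were lower and 23 higher, against 23.6% and 24.0%, and in the third 11 were lower and 26 higher, against 31.3% and 30.1%. HIS4 was lowest in the first at -0.66 and highest in the second at 1.03. DED81, YHR020W and YDR341C, the synthetases with Gcn4 letters, stood at -0.03, -0.19 and -0.05 in the library labelled wild-type TIF4631, where GCN4 was highest, and at -0.05, -0.10 and -0.05 in the deletion control.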

How the data were processed

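The authors deposited raw read counts for each ORF, and the deposited RPKM values were scaled by the authors by ORF length and dataset reads, per the file headers. CASAVA, cutadapt 1.3, Bowtie2 and the sacCer3 build are named in the submitters' processing notes. The counting tool, the ORF annotation and the treatment of reads with several matches are steps not given in the sources used here. RPKM was used for levels between genes and counts for all ratios. The length implied by RPKM was 15 bases below gene length for HTS1 (1626 against 1641), and no member overlaps another annotated gene.

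ORFs with at least 200 summed counts were kept, 4997 of 5441. Scaling factors by TMM (edgeR 4.0.16, R 4.3.3) were 0.997, 0.971, 1.01 and 1.02 in the order wild-type control, labelled wild-type TIF4631, deletion control and deletion with TIF4631. Log2 ratios had 0.5 counts added and 95% conditional binomial intervals (Clopper-Pearson), with a normal approximation for the difference between strains. Beyond counting error means that the interval excludes 0, and further rules asked for 0.5 or 1 on the log2 scale. PCR copies could not be removed, as no molecular identifiers are described, so intervals cover counting error only. The additive model was fitted to all kept ORFs with edgeR's quasi-likelihood test and Benjamini-Hochberg adjustment, with DESeq2 1.42.0 and limma 3.58.1 as alternatives. Its common dispersion was 0.0245. Scripts were tested on simulated data. Python 3.11.15, scipy 1.17.1 and pandas 2.3.3 were used.

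The members and gene lists were chosen with earlier results of these data known. In each contrast the 5 highest and 5 lowest members are named. Sequences and coordinates are from R64, the same assembly as sacCer3, in which 5438 ORFs matched a locus tag.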

Additional observations from a re-analysis of the deposited data

Results flagged for a closer look

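In 8 cytosolic synthetases the ratio for the TIF4631 label pointed in opposite directions in the strains, lower in the library labelled wild-type TIF4631 and higher in the deletion library with TIF4631, each beyond counting error. Of all 4997 ORFs 466 did so, 9.33%. The opposite order, higher and then lower, was found for 423 ORFs, 8.47%, and for 0 synthetases of either class. Of the 13 mitochondrial synthetases 0 passed in either order. In deletion cells with TIF4631 12 of these 13 were below 0, and their lower counts give wider intervals. Cytosolic synthetases held 2647 to 25105 counts per library, where the median ORF held 552 to 860, so smaller differences pass counting error in them. ILS1 passed narrowly, at 0.03 (0.00 to 0.06) in deletion cells. Scaled without the 50 most abundant ORFs, 7 and not 9 cytosolic genes were higher in deletion cells with TIF4631. The difference between the strains was 0.46 on the log2 scale for WRS1, 0.36 for MES1, 0.32 for KRS1, 0.27 for YHR020W, 0.24 for FRS1, 0.15 for GLN4, 0.15 for GUS1 and 0.12 for ILS1. With 1 library per group these differences were not tested. TIF4631 itself was not raised in the library labelled wild-type TIF4631.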

How the results depend on the processing

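Alternatives gave 144 values. The cytosolic minus mitochondrial difference of medians was 0.36 in each contrast with the deletion library with TIF4631. It stayed between 0.34 and 0.45 when ALA1, GRS1, HTS1 and VAS1 were left out, means were used or 1 count was added. Removing the filter or raising it to 1000 counts could not change this difference. All members pass either filter, and the scaling was kept. With total count scaling the cytosolic median moved from -0.09 to -0.13 in the library labelled wild-type TIF4631, from -0.02 to 0.05 in the deletion against that library and from 0.06 to 0.11 in the difference between strains. Cytosolic genes higher in the vps35 contrast went from 1 to 2 and those lower in the difference between strains from 7 to 3. Mitochondrial genes lower in the library labelled wild-type TIF4631 went from 2 to 4, also without the 50 most abundant ORFs. The cytosolic over mitochondrial level was 20.5 without ALA1, GRS1, HTS1 and VAS1. Scaling without the library labelled wild-type TIF4631, chosen after seeing the data, left the medians and counts of the vps35 contrast and of the TIF4631 contrast in deletion cells as given. Search windows of 100 and 300 bases, also chosen after seeing the data, left 13 of 13 mitochondrial genes with TGTANATA. The 300-base window contains the 200-base one, so only the 100-base window could have lowered that count. No setting of the additive model called a member. Its calls over all ORFs for vps35 were 42 that rose and 52 that fell with no filter, 19 and 28 with DESeq2 size factors and 30 and 36 by DESeq2. For the TIF4631 label they were 5 and 1 by DESeq2, 3 and 1 with no filter, and 1 and 1 with total counts, DESeq2 size factors or the higher filter. No paired analysis was possible because no group has replicates to pair, and the additive model already compares the strains within each plasmid label. The causes were not tested. Depth limits the mitochondrial class most, with 259 to 994 counts per gene and library.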
